A study of Homo sapiens with 12 samples.

Results

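HAND1, HAND2, TBX20, TBX3, TBX5, NKX2-5, ISL1, MEF2C, MSX1 and MSX2 are transcription factor genes of the lateral plate mesoderm and the forming heart. They were followed through the steps by which human embryonic stem cells were led toward blood. The 10 genes were taken by symbol from a table of 56593 distinct symbols, and each stood on a single line of it. The H1 line, an established human embryonic stem cell line, was treated with activin A and BMP4 for 2 days and then with VEGF and bFGF. RNA was sequenced from 3 libraries each of undifferentiated H1 cells, APLNR+ cells of day 2, CD31+CD34+ cells of day 5 and CD43+ cells of day 8. APLNR marks mesoderm, CD31 (PECAM1) and CD34 mark endothelial cells that include hemogenic endothelial cells (HEPs), and CD43 (SPN) marks hematopoietic progenitor cells (HPCs). All 4 populations came from the same line and carried no genetic change named in the labels, and the 3 differentiated populations were defined by the surface proteins used to collect them. The libraries therefore speak for this line and protocol alone.

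Lateral plate mesoderm gives rise to the heart, the vessels and the earliest blood. HAND1 and HAND2 are basic helix-loop-helix factors of the extraembryonic mesoderm, heart and limb. TBX20, TBX3 and TBX5 are T-box factors of the heart chambers and conduction system, NKX2-5 and ISL1 are homeobox factors of the cardiac progenitors, and MEF2C is a MADS-box factor of muscle, endothelium and several blood lineages. MSX1 and MSX2 are homeobox factors that respond to BMP signalling in many embryonic tissues.

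The deposited values were FPKM, fragments scaled by transcript length and by the fragments of the library. The number of reads behind a value is unknown. Relative depth, estimated from the steps between low values and set against CD43+ replicate 3, ran from 0.561 to 1.26, and replicate 1 was the shallowest library of every population. EEF1A1, which encodes a translation elongation factor of all cells, had the value 0 in 6 libraries and 1839 to 4616 FPKM in the other 6, which were all 3 CD31+CD34+ libraries and replicate 1 of the other populations. An exact 0 can thus be a failed estimate. The labels do not name a sequencing batch. Within replicates 2 and 3 the split is the same as that between CD31+CD34+ cells and the others. Whatever lies behind it and that population cannot be told apart there. All 4 replicate 1 libraries are on the same side of the split, but with 1 library per population they allow no test. For that reason differences near the threshold are also given between the replicate 1 libraries. Each sorting marker was present in the population named for it, though not always highest there. APLNR was at 0.528 ± 0.152 FPKM in H1 cells and 383 ± 22.3 in APLNR+ cells, PECAM1 at 55.2 ± 4.10 in CD31+CD34+ cells, and SPN at 3.70 ± 0.748 in the CD31+CD34+ cells and 75.5 ± 15.2 in the CD43+ cells (SD, n = 3 each). APLNR was still at 403 ± 24.6 FPKM in CD31+CD34+ cells, PECAM1 was at 95.9 ± 11.7 FPKM in CD43+ cells, and CD34 was at 47.7 ± 7.08 FPKM in CD31+CD34+ and 22.2 ± 4.21 FPKM in CD43+ cells (SD, n = 3 each).

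The paralogues HAND1 and HAND2, and likewise MSX1 and MSX2, had different courses over the same 12 libraries, while HAND1 and MSX2 had courses alike. Their promoter sequences are shown so that these relations can be read beside the letters upstream of each gene. The RefSeq table of promoters on the build GRCh38.p14 held 15 starts for 8 of the 10 genes, of which MEF2C had 7 and TBX5 had 2. NKX2-5 and TBX3 had no entry. The 250 bases before the start were HAND1 chr5:154478228-154478477 (minus strand), HAND2 chr4:173530230-173530479 (minus strand), MSX1 chr4:4859415-4859664 (plus strand) and MSX2 chr5:174724332-174724581 (plus strand). Each is printed 5′ to 3′ on the strand of its gene, and capitals mark the letters GATAA, which GATA factors read, or GGGCGG, the GC box, on either strand.
HAND1: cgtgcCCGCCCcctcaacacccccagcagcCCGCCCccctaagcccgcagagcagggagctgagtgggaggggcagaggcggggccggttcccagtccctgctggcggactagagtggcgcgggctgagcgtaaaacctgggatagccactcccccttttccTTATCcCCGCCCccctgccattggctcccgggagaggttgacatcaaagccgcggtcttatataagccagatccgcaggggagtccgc
HAND2: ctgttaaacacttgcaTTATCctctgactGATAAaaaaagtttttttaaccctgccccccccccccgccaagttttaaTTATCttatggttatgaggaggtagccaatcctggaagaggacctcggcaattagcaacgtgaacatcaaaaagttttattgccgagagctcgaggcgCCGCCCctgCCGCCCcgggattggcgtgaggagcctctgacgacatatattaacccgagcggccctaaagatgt
MSX1: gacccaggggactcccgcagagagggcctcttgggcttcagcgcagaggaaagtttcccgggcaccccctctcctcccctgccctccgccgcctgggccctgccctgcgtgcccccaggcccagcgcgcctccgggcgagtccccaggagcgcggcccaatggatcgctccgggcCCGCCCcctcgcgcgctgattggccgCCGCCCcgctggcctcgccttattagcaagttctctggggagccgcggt
MSX2: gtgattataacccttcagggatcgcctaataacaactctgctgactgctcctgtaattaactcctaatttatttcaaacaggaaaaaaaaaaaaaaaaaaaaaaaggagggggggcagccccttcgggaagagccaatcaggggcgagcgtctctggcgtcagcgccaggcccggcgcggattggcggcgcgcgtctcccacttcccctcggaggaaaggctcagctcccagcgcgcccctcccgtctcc

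HAND1 held GATAA at 1 position, 88 bases before the start, and HAND2 at 3 positions, 234, 221 and 172 bases before it. MSX1 and MSX2 held none in this window. GATAA was found in 20.4% of all 35116 promoter windows of this length and in 7 of the 15 windows of these genes. Several of the 15 windows are starts of the same gene, MEF2C or TBX5, so they do not count separate genes. GGGCGG stood at 3 positions in HAND1 and 2 positions each in HAND2 and MSX1, and not in MSX2. It was found in 42.6% of all windows and in 4 of the 15. The E-box CANNTG, which basic helix-loop-helix factors read, stood at 1 position in HAND2 and in none of the other 3 printed windows. It was found in 61.8% of all windows and in 6 of the 15. No matches of these motifs overlapped in the 4 windows. GC content was 67.2% in HAND1, 49.6% in HAND2, 74.0% in MSX1 and 55.6% in MSX2. HAND1 and MSX2, whose levels ran most alike, shared none of these 3 motifs. These are matches of letters in a short window and show no binding.

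In H1 cells all 10 genes were low. The population means lay between 0.00615 and 0.478 FPKM, and their summed level per library lay between 0.767 and 1.49 FPKM. The sum was 96.8 to 115 FPKM among APLNR+ cells, 115 to 128 in the CD31+CD34+ cells and 52.6 to 70.4 in the CD43+ cells. At a mean of 1 FPKM or more stood 0 of the 10 genes in H1 cells, 8 in APLNR+ cells, 9 in the CD31+CD34+ cells and 9 in the CD43+ cells. The highest population was APLNR+ for HAND1, TBX3 and MSX2, CD31+CD34+ for TBX20, NKX2-5, ISL1 and MSX1, and CD43+ for HAND2 and MEF2C. In bulk samples such as these, fewer cells of a type and less RNA per cell cannot be told apart.

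**Figure D1:**
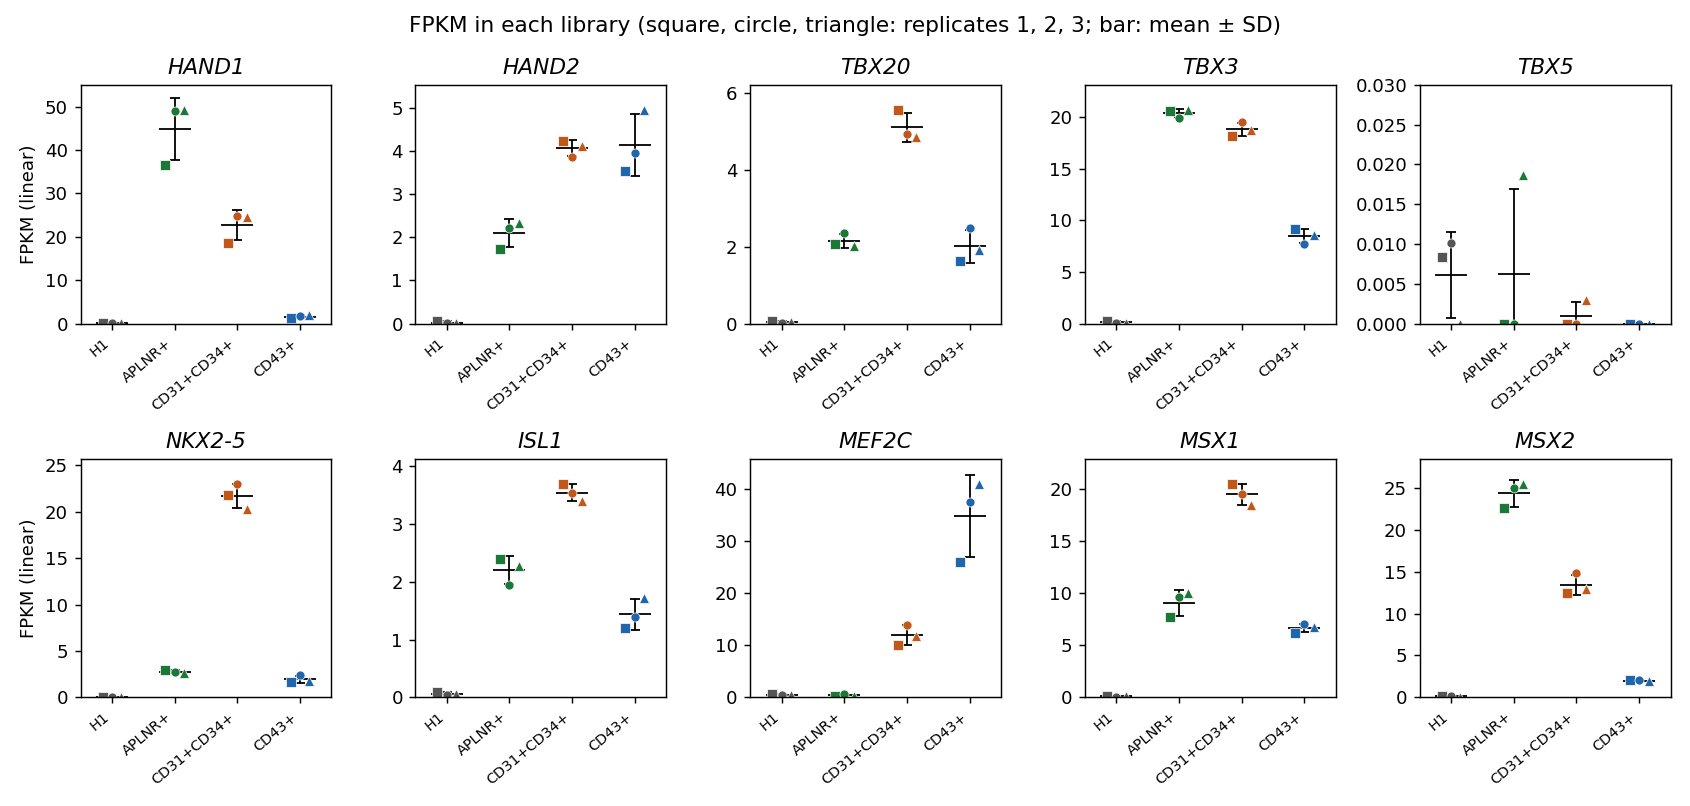
FPKM of each of the 10 genes in each library, with a panel and a vertical scale of its own for each gene. Points are libraries, horizontal bars are means of 3 libraries, and the columns are the 4 populations. TBX5 stayed below 0.0186 FPKM or at that value in every library, while HAND1 reached 36.6 to 49.1 FPKM in APLNR+ cells and MEF2C reached 26.0 to 40.9 FPKM in CD43+ cells.

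Changes were tested with limma on log2(FPKM + 1) over the 14840 genes that reached 1 FPKM in at least 3 libraries, and calls required both an adjusted p below 0.05 and a difference of 2-fold or more. Of the 10 genes, 9 were tested, and TBX5 fell under the filter. All 9 were below 1 FPKM in every H1 library, so each passed the filter through the differentiated populations where it was high, and a rise over H1 cells was built into that choice. Against H1 cells, 8 of the 9 were raised and 0 lowered in APLNR+ cells, where 8.3% of all genes tested were raised and 7.62% lowered. All 9 were raised in CD31+CD34+ cells, where 16.9% of all genes were raised and 23.2% lowered, and all 9 in CD43+ cells, where the shares were 14.6% and 22.5%. From APLNR+ to CD31+CD34+ cells 3 were raised and 0 lowered, with 12.5% of all genes raised and 17.1% lowered. MEF2C, 1 of these 3, was below 1 FPKM in every APLNR+ library too, so its rises over APLNR+ cells were also built in. Between CD31+CD34+ and CD43+ cells 1 was raised and 6 were lowered, with 5.58% of all genes raised and 8.79% lowered. In CD43+ against APLNR+ cells 1 was raised and 3 were lowered, with 14.1% of all genes raised and 19.4% lowered. These comparisons share libraries and are not independent. Nothing in the labels says that the replicates were separate cultures, so the p-values measure the spread between these libraries.

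**Figure D2:**
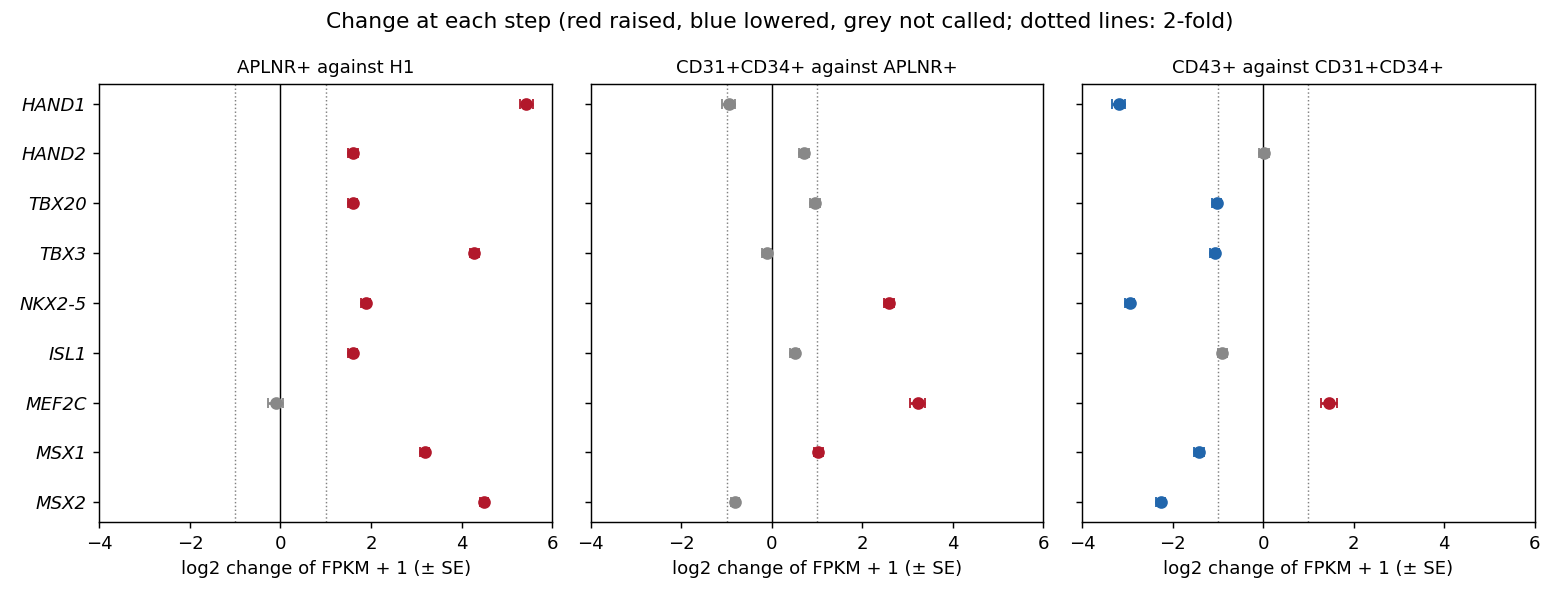
Change of the 9 tested genes at each consecutive step, as the difference of mean log2(FPKM + 1) on the horizontal axis with its standard error. Red points were raised, blue lowered and grey not called, and dotted lines mark 2-fold. HAND1 moved furthest at the first step, by 5.43, and fell furthest at the last, by 3.19, while MEF2C alone rose at the last step, by 1.46.

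HAND1, needed for extraembryonic mesoderm and heart, had the highest level of the 10 genes in APLNR+ cells. Its FPKM was 0.0543, 0.0467 and 0.0698 in the H1 libraries, 36.6, 48.9 and 49.1 in the APLNR+ libraries, 18.6, 24.8 and 24.5 in the CD31+CD34+ libraries and 1.24, 1.65 and 1.88 in the CD43+ libraries. No population overlapped another, and the order was APLNR+, CD31+CD34+, CD43+ and H1. The rise into APLNR+ cells was 5.43 ± 0.15 on the log2(FPKM + 1) scale (SE, limma, adjusted p = 3.61e-11), the rank 21 among all 14840 changes of that step. The difference of CD31+CD34+ from APLNR+ cells was -0.96 ± 0.15 (adjusted p = 8.58e-05), short of the 2-fold threshold. It passed this threshold without APLNR+ replicate 1 at -1.09 and without CD31+CD34+ replicate 2 or 3 at -1.02. It stayed short at -0.83 without CD31+CD34+ replicate 1 and at -0.96 within replicates 2 and 3. Between the replicate 1 libraries, where there is no test, it was -0.94. In CD43+ cells HAND1 fell by 3.19 (SE 0.15, adjusted p = 5.34e-09), rank 36 among the falls, and its mean was 3.54% of that in APLNR+ cells.

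HAND2, the paralogue of HAND1 in the heart and limb, had its highest mean in CD43+ cells, where HAND1 fell. Its FPKM was 0.0526, 0.00391 and 0.00870 in H1 cells, 1.73, 2.22 and 2.35 in APLNR+ cells, 4.24, 3.87 and 4.12 in the CD31+CD34+ cells and 3.55, 3.96 and 4.95 in the CD43+ cells. The last 2 populations overlapped, and both lay above every APLNR+ library. HAND2 rose by 1.60 ± 0.11 into APLNR+ cells (adjusted p = 1.92e-07). The step to CD31+CD34+ cells measured 0.72 ± 0.11 (adjusted p = 0.000116) and did not reach 2-fold, and the step to CD43+ cells measured 0.01 ± 0.11 (adjusted p = 0.936).

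FPKM is per length, so the levels of HAND1 and HAND2 can be set against each other within a library. HAND1 was 21.4 ± 0.580 times the level of HAND2 in APLNR+ cells, 5.58 ± 1.06 times in the CD31+CD34+ cells and 0.382 ± 0.0335 times in the CD43+ cells (SD, n = 3 each). The difference of log2(FPKM + 1), HAND1 minus HAND2, went from 3.88 ± 0.09 to 2.21 ± 0.27 and then to -0.99 ± 0.07. It changed by -1.67 and by -3.20 at these steps, and the libraries of the compared populations did not overlap. Each change had an exact two-sided permutation p of 0.1, the smallest that 3 against 3 libraries allow, and 0.113 after Benjamini-Hochberg adjustment over the 9 tests of this kind.

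HAND2-AS1, transcribed on the opposite strand beside HAND2, was listed at 0 in all 3 H1 libraries. It was at 0.109, 0.158 and 0.298 FPKM in APLNR+ cells, 0.729, 0.553 and 0.303 in the CD31+CD34+ cells and 0.889, 1.61 and 0.702 in the CD43+ cells. It fell under the filter and was not tested. The sources do not state that the values used the strand, so reads of a gene and of its antisense partner cannot be told apart.

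MSX2, a target of BMP signalling in mesoderm, had a course like that of HAND1. Its FPKM was 0.159, 0.149 and 0.0568 in H1 cells, 22.6, 25.1 and 25.5 in APLNR+ cells, 12.5, 14.8 and 12.96 in the CD31+CD34+ cells and 2.03, 2.01 and 1.96 in the CD43+ cells. The 4 populations were separate, with APLNR+ cells the highest. MSX2 rose by 4.50 ± 0.09 into APLNR+ cells (adjusted p = 6e-12). The next difference was -0.81 ± 0.09 (adjusted p = 7.4e-06, under 2-fold), and MSX2 then fell by 2.27 into CD43+ cells (SE 0.09, adjusted p = 2.29e-09), to 8.20% of its highest mean.

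MSX1, the paralogue of MSX2, was highest a step later. Its FPKM was 0.154, 0.0470 and 0.108 in H1 cells, 7.65, 9.61 and 9.96 in APLNR+ cells, 20.4, 19.5 and 18.5 in the CD31+CD34+ cells and 6.18, 7.02 and 6.71 in the CD43+ cells. Again no population overlapped another, and CD43+ cells lay just under APLNR+ cells. MSX1 rose by 3.18 ± 0.11 into APLNR+ cells (adjusted p = 1.94e-10), rose by 1.03 ± 0.11 into CD31+CD34+ cells (adjusted p = 2.86e-06) and fell by 1.42 into CD43+ cells (SE 0.11, adjusted p = 3.29e-07). The middle rise was close to the threshold. It was 0.89 within replicates 2 and 3, 1.31 between the replicate 1 libraries, 0.92 without APLNR+ replicate 1 and 0.99 without CD31+CD34+ replicate 1, and it was not called in the 3 of these that could be tested.

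Within a library MSX2 was 2.71 ± 0.215 times the level of MSX1 in APLNR+ cells, 0.693 ± 0.0752 times in the CD31+CD34+ cells and 0.302 ± 0.0228 times in the CD43+ cells (SD, n = 3 each). The higher of the pair was thus MSX2 in every APLNR+ library and MSX1 in every later library. The log2 difference, MSX2 minus MSX1, changed by -1.84 and then by -0.84, without overlap of libraries (exact permutation p = 0.1 each, 0.113 adjusted over 9 tests).

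NKX2-5, the homeobox gene that marks committed cardiac progenitors, was concentrated in CD31+CD34+ cells. In H1 cells it was at 0.0760 FPKM in replicate 1 and listed at 0 in replicates 2 and 3. It was at 2.93, 2.77 and 2.60 FPKM in APLNR+ cells, 21.8, 22.97 and 20.3 in the CD31+CD34+ cells and 1.68, 2.39 and 1.79 in the CD43+ cells. Every CD31+CD34+ library stood far above all the others, and the APLNR+ mean was 12.8% and the CD43+ mean 9.0% of the CD31+CD34+ mean. NKX2-5 rose by 1.88 ± 0.10 into APLNR+ cells (adjusted p = 1.95e-08) and by 2.59 ± 0.10 into CD31+CD34+ cells (adjusted p = 1.09e-09), and fell by 2.95 into CD43+ cells (SE 0.10, adjusted p = 7.86e-10), rank 48 among the falls. Between the replicate 1 libraries the last 2 steps measured 2.54 and -3.09. The CD43+ and APLNR+ libraries did not overlap, with a difference of -0.36 ± 0.10 (adjusted p = 0.00799) that was under 2-fold.

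ISL1, the LIM-homeobox gene of the second heart field, had a flatter course with the same highest population. It was at 0.0432 to 0.0869 FPKM in H1 cells, 1.94 to 2.40 in APLNR+ cells, 3.40 to 3.69 in the CD31+CD34+ cells and 1.20 to 1.73 in the CD43+ cells. The ranges were all separate. ISL1 rose by 1.59 ± 0.10 into APLNR+ cells (adjusted p = 4.48e-08). Its later steps were 0.51 ± 0.10 (adjusted p = 0.000511) and -0.90 ± 0.10 (adjusted p = 8.98e-06), and neither reached 2-fold on this scale, though the second did at -1.26 with a pseudocount of 0.1 and at -1.09 between the replicate 1 libraries, where there is no test.

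TBX20, a T-box repressor of the chamber myocardium and endocardium, was at 0.0245 to 0.0723 FPKM in H1 cells, 2.03 to 2.37 in APLNR+ cells, 4.85 to 5.55 in the CD31+CD34+ cells and 1.64 to 2.49 in the CD43+ cells. The APLNR+ and CD43+ libraries overlapped (difference -0.07 ± 0.11, adjusted p = 0.550), and CD31+CD34+ cells were above both. TBX20 rose by 1.59 ± 0.11 into APLNR+ cells (adjusted p = 1.23e-07), stood 0.96 ± 0.11 higher in CD31+CD34+ cells (adjusted p = 6.77e-06, under 2-fold, and 1.10 between the replicate 1 libraries) and fell by 1.03 into CD43+ cells (SE 0.11, adjusted p = 7.22e-06). That fall was -0.89 within replicates 2 and 3, -0.98 without CD31+CD34+ replicate 1 and -0.94 without CD43+ replicate 1, and was not called there, while it was -1.31 between the replicate 1 libraries.

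TBX3, a T-box repressor of the conduction system and limb, was nearly level from mesoderm to HEPs. It was at 0.0185 to 0.258 FPKM in H1 cells, 19.95 to 20.7 in APLNR+ cells, 18.2 to 19.5 in the CD31+CD34+ cells and 7.75 to 9.14 in the CD43+ cells. The APLNR+ and CD31+CD34+ ranges were adjacent without overlap, and their difference of -0.11 ± 0.10 did not pass the test (adjusted p = 0.326). TBX3 rose by 4.28 ± 0.10 into APLNR+ cells (adjusted p = 1.31e-11) and fell by 1.07 into CD43+ cells (SE 0.10, adjusted p = 2.56e-06), a fall that was not called with quantile normalization, at -0.96. It was -1.14 within replicates 2 and 3 and -0.92 between the replicate 1 libraries. With 8.48 ± 0.697 FPKM in CD43+ cells (SD, n = 3), it was the highest of the 10 genes there after MEF2C. TBX3 was 9.53 ± 0.959 times the level of TBX20 in APLNR+ cells, 3.70 ± 0.368 times in the CD31+CD34+ cells and 4.39 ± 1.24 times in the CD43+ cells (SD, n = 3 each), and the change of their log2 difference at the last step was -0.04 (exact permutation p = 0.8).

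TBX5, the T-box gene of the first heart field and forelimb, was close to 0 throughout. It was listed at 0.00832 and 0.0101 FPKM in H1 replicates 1 and 2, at 0.0186 in APLNR+ replicate 3, at 0.00301 in CD31+CD34+ replicate 3 and at 0 in the remaining 8 libraries. No order of populations can be read from these values. TBX5-AS1 was at 0.00293 FPKM in H1 replicate 2 and listed at 0 in the remaining 11 libraries.

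MEF2C was the exception to the early rise. Its FPKM was 0.566, 0.453 and 0.414 in H1 cells, 0.234, 0.594 and 0.315 in APLNR+ cells, 10.1, 13.8 and 11.8 in the CD31+CD34+ cells and 26.0, 37.5 and 40.9 in the CD43+ cells. The H1 and APLNR+ libraries overlapped (difference -0.10 ± 0.17, adjusted p = 0.624), and the later populations were separate from these and from each other. MEF2C rose by 3.22 ± 0.17 into CD31+CD34+ cells (adjusted p = 8.55e-09) and by 1.46 ± 0.17 into CD43+ cells (adjusted p = 1.59e-05). Every H1 and APLNR+ library was below 1 FPKM, so MEF2C passed the filter only through CD31+CD34+ and CD43+ cells. Its rise over APLNR+ cells was thus built into that choice as well. MEF2C was the only one of the 9 tested genes that was raised at the last step.

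Of 9 endothelial markers, all tested, 9 were raised into CD31+CD34+ cells with MEF2C, and 0 were raised and 6 lowered into CD43+ cells. Of 10 blood markers 8 were tested, of which 4 were raised into CD31+CD34+ cells and 8 into CD43+ cells. The endothelial list included PECAM1 and the blood list SPN, whose proteins were used to collect the cells. Their rises into the populations named for them were thus set by the sorting. The summed level of the endothelial markers was 53.8 to 58.6 FPKM in H1 cells, 69.1 to 83.1 in APLNR+ cells, 1685 to 1895 in the CD31+CD34+ cells and 626 to 769 in the CD43+ cells. The sum of the blood markers was 4.42 to 5.96 FPKM in APLNR+ cells, 31.1 to 41.5 in the CD31+CD34+ cells and 1298 to 1407 in the CD43+ cells. The part of cell type in the MEF2C change was not tested. MEF2C-AS1 was at 1.06, 1.35 and 1.53 FPKM in H1 cells, 0.0453, 0.130 and 0.127 in APLNR+ cells, 0.0580, 0.219 and 0.0668 in the CD31+CD34+ cells and 1.67, 1.87 and 5.26 in the CD43+ cells. Its fall of 1.07 into APLNR+ cells (SE 0.25, adjusted p = 0.00295) came where MEF2C was level, and it rose by 1.71 ± 0.25 into CD43+ cells (adjusted p = 0.000109) together with MEF2C. MEF2C-AS2 was listed at 0 in every library.

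**Figure D3:**
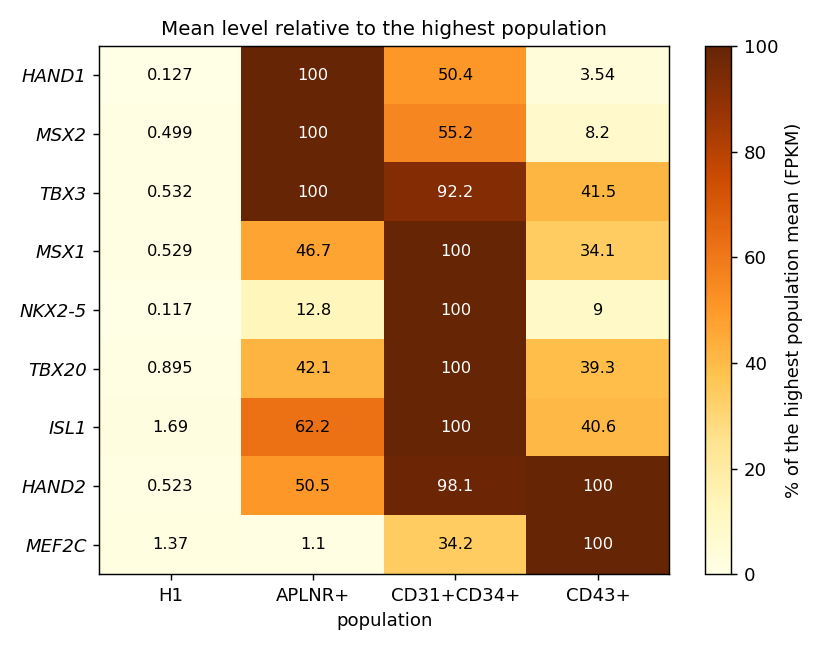
Mean FPKM of the 9 tested genes in each population as a percent of that gene's highest population mean, with the percent printed in each cell and darker cells higher. HAND1, MSX2 and TBX3 are at 100 in APLNR+ cells, MSX1, NKX2-5, TBX20 and ISL1 in CD31+CD34+ cells, and HAND2 and MEF2C in CD43+ cells.

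The genes most like each factor were ranked by Pearson's r of log2(FPKM + 1) over the 12 libraries, among 10424 tested symbols with a highest mean of at least 5 FPKM. The 12 libraries fall into 4 populations that every gene shares, so these values describe the order of 4 levels. FAM20A (r = 0.997) and FBN2 (r = 0.997) were the closest to HAND1, and FAM20A (r = 0.998) and FBN2 (r = 0.997) were also the closest to MSX2. The third place for HAND1 was MSX2 itself (r = 0.995), and that for MSX2 was MAN1A1 (r = 0.996). FAM20A had means of 34.0 FPKM in APLNR+ cells and 2.19 in CD43+ cells. HAND2 was followed by ZEB2 (r = 0.994), a repressor of epithelial genes with means of 11.7 FPKM in APLNR+ cells and 53.4 in CD43+ cells, and by PPP1R15A and TRIM5 (r = 0.990 each). HAND1 and HAND2 had an r of 0.54 with each other.

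For NKX2-5 the closest genes were MMP15 (r = 0.997), MCAM (r = 0.994) and LSS (r = 0.992). MCAM, an adhesion molecule of endothelium and pericytes, had means of 23.0 FPKM in APLNR+ cells, 131 in the CD31+CD34+ cells and 23.0 in the CD43+ cells. MSX1 was followed by CDH11 (r = 0.996), NRP1 (r = 0.994) and VIM (r = 0.994), and ISL1 by SP5 (r = 0.993), CDH11 (r = 0.992) and ITGA5 (r = 0.991). CDH11, NRP1 and VIM are widely used as mesenchymal or vascular genes. TBX20 had LRP10 (r = 0.993) and FN1 (r = 0.992) among its closest genes, and TBX3 was followed by PCAT14 (r = 0.998), ENC1 and KLF6 (r = 0.995 each). MEF2C was followed by NXF3 (r = 0.998), LCP2 (r = 0.998) and LAPTM5 (r = 0.997), and the last 2 are genes of hematopoietic cells. Among pairs of the 9 factors the highest r was 0.995 for HAND1 with MSX2, and the lowest was -0.10 for MEF2C with HAND1.

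Partners and upstream regulators of the cardiac mesoderm were described from a list of 33 genes, of which 20 were tested. Of the 33 genes, 3 had a mean of 1 FPKM or more in H1 cells. Most of the 20 thus passed the filter through the differentiated populations, and a rise over H1 cells was largely built into that choice. The same limit holds for genes of the other lists that were below 1 FPKM in H1 cells. It also holds at the second step for genes, such as HOPX, that were below 1 FPKM in both H1 and APLNR+ cells. Of all genes tested, 8.3% were raised and 7.62% lowered at the first step, 12.5% and 17.1% at the second, and 5.58% and 8.79% at the last. Into APLNR+ cells 13 of the 20 were raised and 0 lowered, with a median change of 1.63 against -0.12 for all genes. The largest rises were those of GATA6, a zinc-finger factor of mesoderm and endoderm, by 5.38 ± 0.10 to 42.0 ± 3.07 FPKM, and of MESP1, the factor of the earliest cardiac mesoderm, by 4.68 ± 0.15 to 26.2 ± 5.41 FPKM. Into CD31+CD34+ cells 7 were raised and 6 lowered. HOPX, which has a homeodomain and does not bind DNA, rose by 4.69 ± 0.12 and ZFPM2, a GATA cofactor, by 2.51 ± 0.15, while MESP1 fell by 3.70 and MESP2 fell by 3.48. Into CD43+ cells 1 was raised and 7 were lowered. MEIS1, a cofactor of HOX proteins in blood progenitors, rose by 1.53 ± 0.15 to 51.5 ± 10.02 FPKM, MYOCD, the cofactor of smooth and cardiac muscle genes, fell by 2.18, and GATA6 fell by 2.08. In CD43+ against H1 cells 9 of the 20 were raised and 1 was lowered.

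Relatives of the MEF2 and T-box factors were 16 listed and 6 tested. EOMES, the T-box gene of primitive streak and endoderm, rose by 5.75 ± 0.08 into APLNR+ cells, to 56.5 ± 4.28 FPKM, and T, the primitive streak gene brachyury, rose by 2.36 ± 0.14, to 4.44 ± 0.857 FPKM. Both fell at the next step, EOMES by 3.48 and T by 1.40. In total 3 of the 6 were raised at the first step, 1 was raised and 3 lowered at the second, and 1 was lowered at the third, where EOMES fell by 2.34. MEF2D rose by 1.33 ± 0.13 into CD31+CD34+ cells and was then at 6.07 ± 0.882 FPKM, below the 11.9 ± 1.87 FPKM of MEF2C (SD, n = 3).

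The BMP pathway list held 24 genes, of which 21 were tested. The culture medium of the first 2 days contained BMP4 protein. Into APLNR+ cells 13 were raised and 0 lowered, with a median change of 1.497. The ligand genes BMP4, by 5.67 ± 0.10 to 93.6 ± 3.52 FPKM, and BMP2, by 5.64 ± 0.08 to 71.3 ± 0.939 FPKM, rose most. Into CD31+CD34+ cells 3 were raised and 6 lowered. The ligand gene BMP10, expressed in the heart, rose by 2.41 ± 0.16 to 5.16 ± 1.44 FPKM. As it was below 1 FPKM in every H1 and APLNR+ library, its rise was built into the filter. ID3, a target of the pathway, rose by 1.33 ± 0.13 to 135 ± 12.7 FPKM, while BMP2 fell by 3.96 and the receptor gene BMPR1A fell by 1.75. Into CD43+ cells 0 were raised and 11 lowered, with a median of -1.05 against -0.00 for all genes. BMP4 fell by 2.93 and the inhibitory SMAD7 fell by 2.92 there. The summed level of the 24 genes was 254 to 275 FPKM in H1 cells, 953 to 974 in APLNR+ cells, 1111 to 1228 in the CD31+CD34+ cells and 334 to 415 in the CD43+ cells.

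Contractile and chamber genes of cardiomyocytes, 21 listed and 13 tested, moved unevenly. Into APLNR+ cells 7 were raised and 1 was lowered. MYL7, the atrial myosin light chain, rose by 5.62 ± 0.15 to 108 ± 16.3 FPKM and NPPB, a natriuretic peptide, by 4.73 ± 0.13 to 26.7 ± 2.29 FPKM, while TNNI3, cardiac troponin I, fell by 2.64 from 18.9 ± 5.51 FPKM in H1 cells. Into CD31+CD34+ cells 2 were raised, GJA5 by 3.54 ± 0.10 and MYL4 by 1.54 ± 0.10, and 5 were lowered, of which NPPB fell by 3.42 and MYL7 fell by 2.17. GJA5 encodes a gap junction protein of atria and arteries. Into CD43+ cells 7 were lowered, of which ACTC1, cardiac actin, fell by 4.66 from 103 ± 16.6 to 3.12 ± 0.669 FPKM and MYL7 fell by 4.23. MYL4 was the 1 raised, by 2.29 ± 0.10 to 268 ± 20.9 FPKM and it encodes the atrial and embryonic light chain. MYL2, the ventricular light chain, was listed at 0 in all libraries. The summed level was 40.0 to 49.6 FPKM in H1 cells, 243 to 274 in APLNR+ cells, 231 to 278 in the CD31+CD34+ cells and 279 to 317 in the CD43+ cells. MYL4 made up most of the sum in CD43+ cells.

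**Figure D4:**
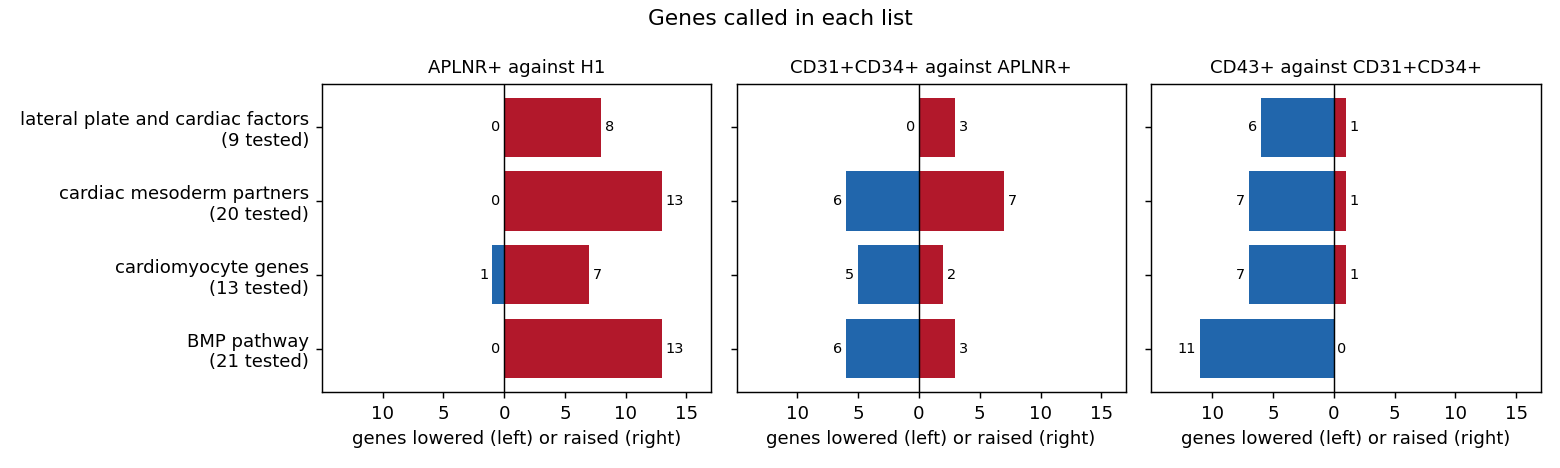
Number of genes raised (to the right) and lowered (to the left) in each gene list at each consecutive step. The BMP pathway list had 13 raised and 0 lowered at the first step and 0 raised and 11 lowered at the last, and the factors of the lateral plate and heart had 8 and 0, then 1 and 6.

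Markers of other cell types that could be among the collected cells also moved at these steps. Smooth muscle and pericyte markers (9 listed, 8 tested) had 4 raised and 0 lowered at each of the first 2 steps and 2 raised and 3 lowered at the last, and their sum was 116 to 132 FPKM in H1 cells, 497 to 619 in APLNR+ cells, 562 to 605 in the CD31+CD34+ cells and 116 to 158 in the CD43+ cells. TAGLN led this sum at 466 ± 69.7 FPKM in APLNR+ cells, and TAGLN at 274 ± 29.4 and RGS5 at 250 ± 48.3 led it in CD31+CD34+ cells (SD, n = 3). In CD43+ cells TAGLN fell by 4.04 and RGS5 fell by 2.99, while MYLK rose by 1.47 ± 0.14 to 35.9 ± 4.50 FPKM and ACTA2 by 1.32 ± 0.17 to 34.8 ± 6.93 FPKM. PDGFRB, which rose by 1.60 ± 0.19 into APLNR+ cells, was at 11.4 ± 1.23, 13.2 ± 2.27 and 17.5 ± 4.38 FPKM in the 3 differentiated populations in order of day. Amnion and trophoblast markers (14 listed, 7 tested) had 4 raised and 1 lowered into APLNR+ cells, then 1 and 0, then 1 and 1. Their sum was 7.91 to 8.89 FPKM in H1 cells and 14.6 to 16.9 in APLNR+ cells. It was 13.6 to 15.4 FPKM in the CD31+CD34+ cells and 8.72 to 11.2 in the CD43+ cells. TFAP2C, at 4.79 ± 0.273 FPKM, and GATA3, at 2.70 ± 0.137 FPKM in APLNR+ cells, were the largest rises. KRT7, the 1 lowered, went from 5.84 ± 0.386 FPKM in H1 cells to 0.976 ± 0.363 in APLNR+ cells (SD, n = 3 each). GABRP changed by -0.59 ± 0.12 at that step and was not called. VTCN1, KRT23, CGA and TP63 were not tested, with APLNR+ means of 0.0652, 0.00403, 0.0226 and 0.0431 FPKM. Among the 14 markers TFAP2B, CGA, WNT6 and ITGB6 were listed at 0 in all 3 H1 libraries. Neural crest markers (10 listed, 6 tested) had 2 raised and 3 lowered, then 0 and 2, then 0 and 2, and their sum was 39.9 to 47.5 FPKM in APLNR+ cells, below the 50.8 to 55.6 of H1 cells. Definitive endoderm markers (10 listed, 8 tested) had 6 raised and 0 lowered into APLNR+ cells, 2 and 2 at the next step and 1 and 5 at the last. Their sum was 8.60 to 10.2 FPKM in H1 cells, 2226 to 2357 among APLNR+ cells, 74.8 to 80.5 in the CD31+CD34+ cells and 32.8 to 40.0 in the CD43+ cells. CER1, a secreted inhibitor of BMP and Nodal signalling, made up most of it at 2238 ± 67.4 FPKM in APLNR+ cells, where GSC was at 20.7 ± 2.27 and SOX17 at 17.5 ± 1.87 (SD, n = 3), while FOXA2 was at 0.392 ± 0.209 FPKM. Of the 9 tested factors, 8 also rose into APLNR+ cells, all but MEF2C. The part of these cell types in the changes of the 9 factors was not tested.

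Within replicates 2 and 3, the calls were 8, 2 and 6 at the 3 consecutive steps, against 8, 3 and 7 with all libraries. That fit used fewer libraries, and its share of all genes called is not given, so no result about the factors is read from these counts. Between the replicate 1 libraries alone, a comparison chosen after the data were seen and without a test, all 40 called differences of the 6 comparisons kept their direction and 39 reached 2-fold. TBX3 at the last step was the exception. The replicate 1 libraries were part of the fits that gave the calls. Rises over H1 cells, 8, 9 and 9 in the 3 comparisons with H1, were built in by the filter. The agreement in direction was thus largely set in advance and is no separate support for the calls. Of the differences at consecutive steps that were not called, TBX20 into CD31+CD34+ cells and ISL1 into CD43+ cells passed 2-fold between the replicate 1 libraries.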

How the data were processed

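RNA-seq of 12 libraries, 3 in each of 4 populations grouped by their titles, was used. Per the labels, RNA was extracted with Trizol and libraries were made with an Illumina TruSeq kit. The values the authors deposited were FPKM, in 1 table that holds each library as a column. The submitters' processing notes name BWA, Bowtie, RSEM and the build hg19, without versions or roles. Of 58366 lines below the header, 1 held text and was left out. All columns belonged to the series. Sequencing depth is not given, and precision is limited by 3 libraries per population.

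Values were taken as log2(FPKM + 1). Genes at 1 FPKM or more in at least 3 libraries (14840) were fitted with limma 3.58.1 in R 4.3.3, with 4 populations in a single model, eBayes with trend, no covariate and Benjamini-Hochberg adjustment per comparison. Adjusted p-values are from this model. Log2 changes understate the change of low genes. Ratios between paralogues were compared by exact permutation tests (scipy 1.17.1). Every factor is described. For the cardiac, BMP and T-box lists the 2 largest rises and falls among called genes are named, with the sorting markers, antisense transcripts and the 3 genes of highest r per factor, of which 1 for TBX20 is not reported here. EEF1A1, MYL2 and single markers of other cell types were added after their values were seen. The 10 genes and all lists were chosen with earlier results of these data known. Promoter sequences came from RefSeq on GRCh38.p14, not the build of the deposited values, and were matched by symbol.

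The alternatives were a pseudocount of 0.1, other filters on low values, upper-quartile and quantile scaling, the replicate number as a block, a term for replicate 1, replicates 2 and 3 alone, a fit to each pair of populations by itself, eBayes without trend, no minimum change and leaving out each library. Replicate 1 alone was added after the data were seen.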

Additional observations from a re-analysis of the deposited data

How the results depend on the processing

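Across the alternatives, 830 recomputed changes of single factors stayed on their side of the threshold, while 8 passed it newly and 7 lost it. No called change turned its sign. The sign turned in 5 values near 0 that were not called, with MEF2C in APLNR+ against H1 cells at 0.01 within replicates 2 and 3, HAND2 at the last step at -0.02 without CD31+CD34+ replicate 2 and -0.09 without CD43+ replicate 3, and TBX20 in CD43+ against APLNR+ cells at 0.08 with quantile normalization and 0.02 without CD43+ replicate 1. The number of factors called moved by more than 1.5 times in few cases. It was 5 in APLNR+ against H1 cells with a mean of at least 5 FPKM, which left 6 factors tested. In CD31+CD34+ against APLNR+ cells it was 5 with quantile normalization, of which 4 were raised and 1 was lowered, and 8 with no minimum change. In CD43+ against APLNR+ cells it was 8 with no minimum change. With no minimum change more genes of any kind are called. The shares of all genes called under the alternatives are not given. The counts thus describe the factors alone and not how unusual they are. Leaving out each library gave 8 in APLNR+ against H1 cells, 2 to 4 in CD31+CD34+ against APLNR+ cells, 6 to 7 in CD43+ against CD31+CD34+ cells, 9 in both later populations against H1 cells and 4 in CD43+ against APLNR+ cells. Beside the values in the report, TBX20 in CD31+CD34+ against APLNR+ cells passed 2-fold at 1.21 with a pseudocount of 0.1, at 1.11 with quantile normalization and at 1.00 without APLNR+ replicate 2, HAND1 passed there at -1.11 with quantile normalization, and TBX3 at the last step was not called with quantile normalization, at -0.96. The cause of these shifts was not tested. A pseudocount of 0.1 widened the rises over H1 cells, to 8.15 for HAND1 and 4.57 for NKX2-5 in APLNR+ cells.

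With the replicate block, which takes the replicate number as a block, the counts were 8, 3, 7, 9, 9 and 4, in the order of the comparisons of APLNR+ against H1, CD31+CD34+ against APLNR+, CD43+ against CD31+CD34+, CD43+ against H1, CD31+CD34+ against H1 and CD43+ against APLNR+, as without it. Deviations from the population means correlated between same-numbered libraries at 0.196 to 0.429 for replicate 1, 0.0254 to 0.247 for replicate 2 and -0.0214 to 0.269 for replicate 3. All 6 pairs of replicate 1 were over 0.1, and 3 of 6 pairs each of replicates 2 and 3. Of 36 pairs with different numbers 7 were over 0.1, with a median of -0.152. As not every same-numbered pair was over 0.1, the numbers were not taken to pair the samples. The main model thus leaves out the likeness among the replicate 1 libraries.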
